A study of Gasterosteus aculeatus with 16 samples.

Results

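The 100 most abundant nuclear genes of threespined stickleback embryos were taken from RNA-seq of whole embryos at 3 days post-fertilization. They were chosen by their mean level in control clutches, in CPM (reads of a gene per 1000000 reads in genes), after 16 genes of the mitochondrial genome had been set aside, and they are 100 of the 17424 nuclear genes and of the 17440 genes in the deposited tables. The study compared 8 clutches of maternally-stressed embryos, called exposed clutches here, whose mothers were chased daily with a rubber model of a sculpin before and while they carried eggs, with 8 control clutches, whose mothers were not chased. Each library held the RNA of 10 pooled embryos of 1 mother, and the mothers of both groups were wild-caught as juveniles in the Navarro River and reared in the laboratory to adulthood, with exposure assigned to tanks of females. The sex of the embryos was not known, and neither labels nor methods say which mothers shared a tank, so clutches were treated as independent. Clutches are named by a first and a second number, neither of them explained. Control clutches 15_14, 15_2 and 15_5 share the first number, as do 5_14 and 5_21, while no exposed clutches share it. If it marks a tank, these control clutches are not independent, which was not tested.

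A small number of genes usually takes a large part of the messenger RNA of a cell. In rapidly growing embryos these are typically genes of the translation machinery, such as ribosomal proteins and elongation factors, of the cytoskeleton, and of energy metabolism, together with the main products of specialised cells, such as the globins of red blood cells and the lipid-carrying proteins of the yolk syncytial layer. A gene that takes many reads leaves fewer for all others, so the share of reads in such genes also enters the level of every other gene in a library. The 100 genes described here could be placed in such classes only in part, because the deposited files give gene IDs without names. The study's list of differentially expressed genes holds and names 5 of them. The other 95 are not in that list and are given by their ID.

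The 5 named genes are RPL27, a protein of the large ribosomal subunit, RPS24, a protein of the small ribosomal subunit, hbbe1.1, an embryonic beta globin, APO14KDA, a small apolipoprotein of fish, and BHMT, betaine-homocysteine methyltransferase, which makes methionine from homocysteine. That list was chosen on these same clutches, so the presence of these 5 genes in it is not independent evidence of their direction. No member was named as a translation factor, a cytoskeletal protein, a histone, a chaperone or an enzyme of glycolysis, which says only that these names are not in the list used. Of 29 named marker genes of lens, red blood cells, muscle, epidermis, yolk syncytial layer and liver, and the nervous system, all 29 averaged at least 1 CPM in exposed clutches and all 29 in control clutches, and 2 of them, hbbe1.1 and APO14KDA, were members. These 29 names come from the same list, whose genes had to be detected to be called, so their detection is partly built in. In whole embryos, more cells of a type and more RNA per cell cannot be told apart.

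The clutches had 8950867 to 12765406 reads in genes. In a set of 6 clutches, 5 exposed and 1 control, 12.0 to 16.3% of summed FPKM (fragments per 1000 nt of transcript and 1000000 mapped fragments) lay in gene models of at most 110 nt, against 3.34 to 9.56% in the other 10. The cut at 10% was placed after the values were seen. The values were graded across it, with clutch 6_21 at 7.15% and clutch 5_21 at 9.56%. Models of the mitochondrial genome were not left out of this share of FPKM. On CPM, nuclear models of at most 110 nt took only 0.0070 to 0.0100% of reads in genes over all clutches. The 6 clutches did not stand apart there, so they are high in short gene models on FPKM only. The share of mitochondrial reads was 1.14 ± 0.38% in exposed clutches and 0.692 ± 0.092% in control clutches (SD, n = 8 each). The main results are also given without these 6 clutches.

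The leading gene was ENSGACG00000002182 on linkage group X (BROADS1, 1567653 to 1571004). It had 7810.0 to 9716 CPM (median 8927) in exposed clutches and 8157 to 10166 CPM (median 8932) in control clutches, and the groups overlapped between 8157 and 9716 CPM. It therefore took 0.890 ± 0.063% of all reads in genes in exposed clutches and 0.900 ± 0.068% in control clutches (SD, n = 8 each). Among nuclear genes it ranked first in 11 of the 16 clutches and was never below rank 2.

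The next 4 genes by control mean were ENSGACG00000007836 on XI (4863732 to 4867753), ENSGACG00000013530 on XVIII (15800515 to 15805626), ENSGACG00000006034 on I (2218130 to 2220146) and ENSGACG00000001394 on scaffold_571 (7448 to 8018). ENSGACG00000007836 averaged 6192 ± 314 CPM in exposed clutches and 6238 ± 422 CPM in control clutches (SD, n = 8 each). From there the levels fell slowly with rank, to 1286 ± 116 CPM in exposed and 1529 ± 93.1 CPM in control clutches at rank 100. Of the 99 pairs of neighbours in the order of control means, only the first pair (ranks 1 and 2) was separated by more than 1 SD on each side. The limit of 100 cut through a continuous range: ranks 98, 99 and 100 had control means of 1546, 1535 and 1529 CPM, and the 3 genes just outside had 1498, 1442 and 1421 CPM.

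**Figure D1:**
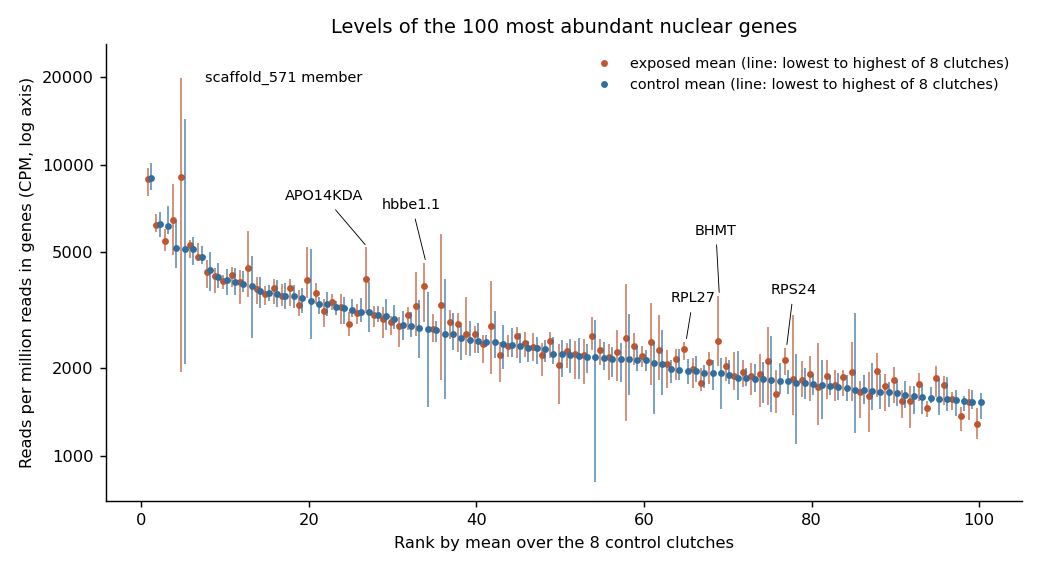
Level of each of the 100 genes in CPM (log axis) against its rank by control mean, with dots for group means and lines for the lowest to highest of 8 clutches per group, exposed (exposed) left of control within each rank. In control clutches the leading gene stands above the rest and levels then fall slowly to 1529 CPM at rank 100. In exposed clutches the scaffold_571 member at rank 5 has the higher mean (9055 CPM, against 8905 CPM for the leading gene) and the widest range, 1936 to 19810.0 CPM.

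In the exposed clutches, which did not enter the choice, between 91 and 97 of the 100 members were among the 100 leading nuclear genes of each single clutch. In the control clutches, which made the choice, these were between 95 and 99, and 77 members were so in all 16 clutches. By the mean of exposed clutches 95 of the 100 would have been chosen, and by the mean of all clutches 97. The choice depended more on the scale. CPM does not correct for gene length and counts only reads that fall in a single gene. FPKM corrects for length and also divides ambiguous reads among loci, and these differences were not separated. On FPKM 62 of the 100 were among the 100 leading nuclear gene models in control clutches, while the lowest stood at rank 372. On FPKM the leading member was ENSGACG00000013869 on XI (13640461 to 13641149), with 18115 ± 2072 FPKM in exposed and 15875 ± 3038 FPKM in control clutches, although it is only at rank 54 on CPM. The leading gene on CPM, ENSGACG00000002182, had 2782 ± 266 FPKM in exposed and 3059 ± 299 FPKM in control clutches (SD, n = 8 each) and stood at rank 83 on that scale.

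The members came mainly from compact loci. Their locus spanned a median of 2599 nt, introns included, against 5221 nt over all nuclear genes, and 90 of the 100 lay below that median. Dividing the control mean CPM by the control mean FPKM gives an apparent transcript length, whose median over the members was 836 nt, between 138 nt for ENSGACG00000013869, on a locus of 689 nt, and 5666 nt for ENSGACG00000009649 on XVIII. CPM counts only reads that fall in 1 gene, whereas Cufflinks divides ambiguous reads among loci, which enters this ratio. Of the members, 94 lay on linkage groups and 6 on scaffolds. Linkage group XI held 12 of the members and 5.02% of the nuclear genes, X held 9 and 3.66%, IV held 7 and 5.92%, and VII held 6 and 6.04%.

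Part of the share of XI is a single stretch. A set of 6 members lies within 21504 nt on XI (13640461 to 13661964), at ranks between 20 and 85. One of them is hbbe1.1, and the other 5 are not named. Together the 6 took 1.60 to 2.29% of reads (median 1.65%) in exposed clutches and 1.03 to 1.98% (median 1.32%) in control clutches. The log2 fold changes of the 6 lay between 0.21 and 0.52 with no adjusted p under the threshold, and between 0.12 and 0.99 without the 6 clutches high in short gene models. A pair of genes named hbae1, alpha-type embryonic globins, lies in the same stretch without being members, at 5.79 and 92.6 CPM on average in exposed and 3.90 and 66.3 CPM in control clutches, although their FPKM averaged 14068 and 8063 in exposed and 10612 and 6528 in control clutches. The unnamed genes ENSGACG00000013871 and ENSGACG00000013895 also lie between the members without being members. In that order they averaged 1607 and 1159 CPM in exposed and 1178 and 1066 CPM in control clutches. Reads shared among these neighbouring genes may be counted for one, another or none, so the split among them is uncertain.

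The members varied less between clutches than most genes on CPM, and only a little less with another scaling. The coefficient of variation (CV, the SD over the mean) had a median of 8.28% in exposed clutches and 7.75% in control clutches over the 100 genes, against 19.1% in exposed and 15.6% in control clutches over the 15995 genes with a mean of at least 1 CPM. Among genes of high level the difference was smaller: the 1555 other nuclear genes with a mean of at least 100 CPM had medians of 10.1% in exposed and 8.62% in control clutches. With median-of-ratios scaling the members had medians of 15.3% in exposed and 12.6% in control clutches, against 16.9% in exposed and 14.3% in control clutches over the 15995 genes. The members were not compared with the other genes of at least 100 CPM on that scaling. Counting error is a minor part of these values, because the fewest reads of any member in any clutch were 8581, which alone gives a CV of 1.08%. A CV under 10% was found for 69 members in exposed clutches and 74 in control clutches. The steadiest in control clutches was ENSGACG00000010916 on XVIII, at 2368 to 2600.1 CPM (median 2436) there and 2082 to 2599.9 CPM (median 2464) in exposed clutches, where the steadiest was ENSGACG00000016489 on III, with a CV of 3.39%.

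Few members varied widely. A CV above 20% was found for 8 members in exposed clutches and 9 in control clutches, 5 of them in both, and the 9 included all 6 of the stretch on XI. In that stretch the CV in control clutches lay between 23.3% for ENSGACG00000013891 and 36.8% for ENSGACG00000013882. In exposed clutches it lay between 10.4% for ENSGACG00000013869 and 44.6% for ENSGACG00000013873. The widest of all members was the gene on scaffold_571, with 70.7% in exposed and 78.1% in control clutches. The extremes of the members were not spread evenly over the clutches. The exposed clutch 14_28 was the highest of the 16 for 23 members and clutch 3_10, also exposed, the lowest for 22, while among control clutches 5_21 was the highest for 13 and 15_2 the lowest for 16. Among exposed clutches, 14_28 and 3_10 also had the highest and the lowest summed share of the members (29.7 and 25.2%). Such counts were not made over all genes, so whether they are particular to the members was not tested.

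**Figure D2:**
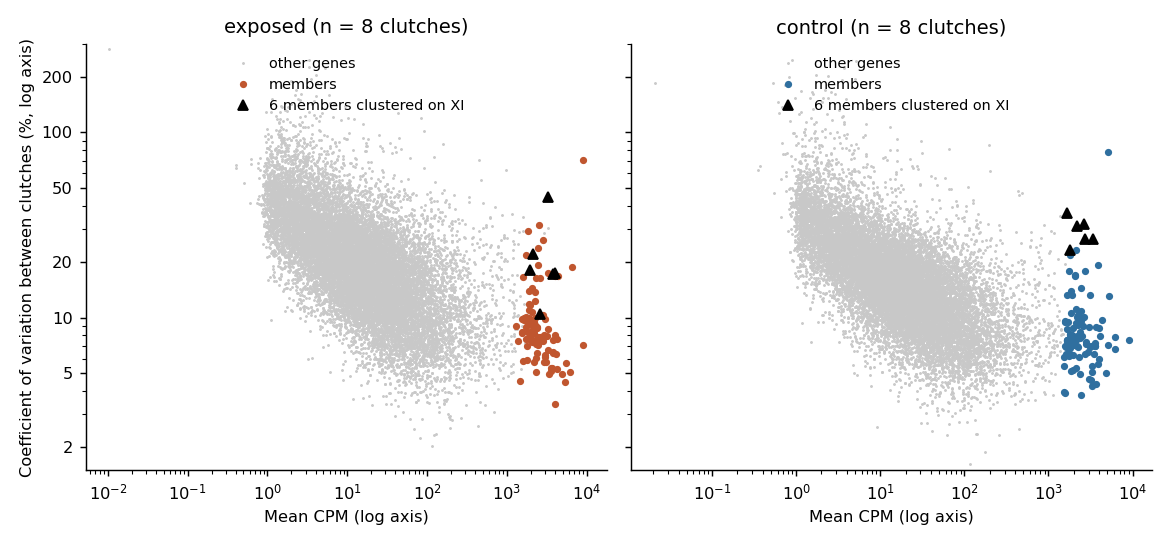
Coefficient of variation between the 8 clutches of a group (percent, log axis) against the mean level in CPM (log axis), exposed at the left and control at the right, for the 100 members, the 6 members clustered on XI (triangles) and the other genes with a mean of at least 1 CPM (grey). Most members lie near their medians of 8.28% (exposed) and 7.75% (control), and the gene on scaffold_571 stands highest at 70.7% (exposed) and 78.1% (control).

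Together the 100 genes, 0.573% of the genes in the tables, took a large part of all reads in genes. Their share was 25.2 to 29.7% (median 28.4%) in exposed clutches and 24.9 to 28.5% (median 26.6%) in control clutches. The ranges overlapped, with 4 exposed clutches above the highest control clutch. The means were 28.05 ± 1.66% in exposed and 26.5 ± 1.24% in control clutches (SD, n = 8 each), a difference of 1.59 percentage points that did not pass the threshold of 0.05 (two-sided exact permutation test over 12870 assignments of the clutches, p = 0.0508). The control clutches chose the members, so this test is not independent of the choice. Within a clutch the counting interval was narrow, at most 0.029 percentage points to either side (95% Wilson interval, counting error only), far below the spread between clutches. The 100 genes are also the leading part of the longer order by control mean, in which 498 nuclear genes took 50% of reads in control clutches. In a separate order by exposed mean, 441 nuclear genes took 50% of reads in exposed clutches.

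The difference in the summed share lay close to the threshold, and its side depended on the choice of members and clutches. By the same exact test it was 1.79 points (p = 0.0347) with the 100 genes chosen by exposed clutches. That choice favours genes high in exposed clutches, as the choice by control clutches favours genes high in control clutches, so neither test is independent of its choice. With the 100 genes chosen over all clutches, a choice that did not use the groups, it was 1.72 points (exact p = 0.0415). Without the scaffold_571 member it was 1.204 points (exact p = 0.104). Without clutch 3_10 it was 2.00 points (exact p = 0.0113). Without the 6 clutches high in short gene models it was 0.990 points, with 27.4 ± 2.26% in 3 exposed clutches and 26.4 ± 1.34% in 7 control clutches (exact p = 0.408). On summed FPKM it ran the other way, at -4.42 points (exact p = 0.0589), where models of at most 110 nt took 10.5 ± 4.33% of summed FPKM in exposed and 6.01 ± 3.99% in control clutches (SD, n = 8 each).

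The share of the 10 leading members alone did not pass the test. These 10 were ranked by control clutches, so the test is not independent of the choice. They took 4.75 to 6.88% (median 5.98%) in exposed and 4.97 to 6.07% (median 5.42%) in control clutches, with means of 5.86 ± 0.71% in exposed and 5.42 ± 0.34% in control clutches (SD, n = 8 each; two-sided exact permutation test, p = 0.134). With the 10 genes leading over all clutches the difference was 0.504 points (exact permutation test, p = 0.104). Without the scaffold_571 member the difference of 0.442 points became 0.051 points (exact permutation test, p = 0.67), and without the 6 clutches high in short gene models it was -0.201 points (p = 0.308). Ranks 11 to 50 took 12.4 ± 0.645% in exposed and 11.8 ± 0.607% in control clutches, and ranks 51 to 100 took 9.76 ± 0.651% in exposed and 9.21 ± 0.488% in control clutches. By position, the 6 genes on XI took 1.78 ± 0.241% in exposed and 1.45 ± 0.331% in control clutches, and the scaffold_571 member took 0.906 ± 0.641% in exposed and 0.515 ± 0.402% in control clutches. The other 93 members took 25.4 ± 1.47% in exposed and 24.5 ± 1.16% in control clutches (SD, n = 8 each).

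**Figure D3:**
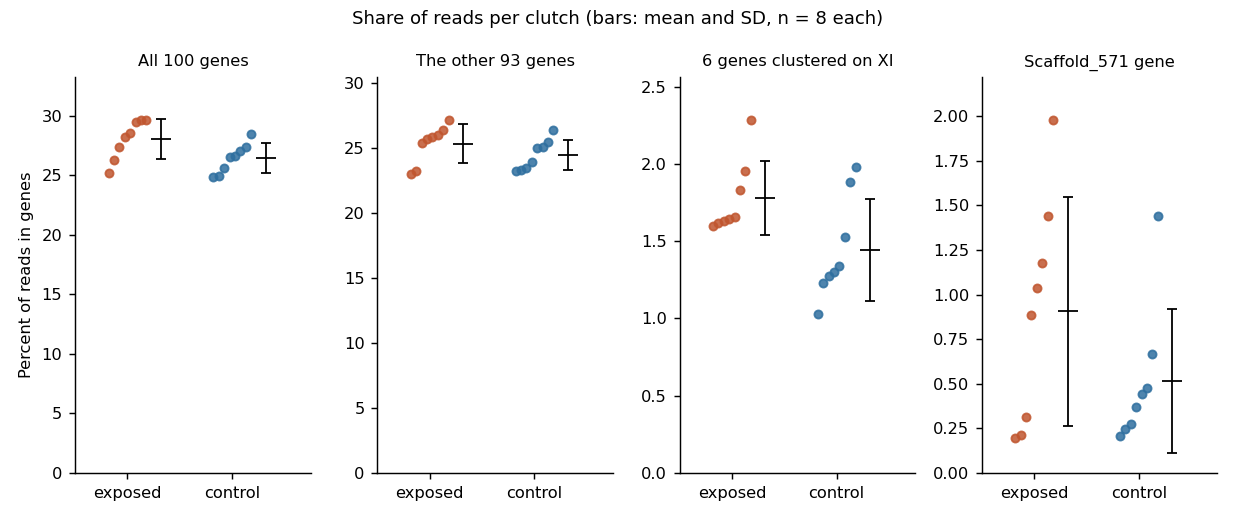
Percent of reads in genes per clutch (points, sorted within each group), with mean and SD beside them, for all 100 genes, the 93 genes outside the XI stretch and scaffold_571, the 6 genes on XI, and the scaffold_571 gene, exposed left of control in each panel. All 100 genes took 25.2 to 29.7% in exposed and 24.9 to 28.5% in control clutches, and the scaffold_571 gene had the widest spread for its level.

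Few members passed the test. Of the 100, 2 passed an adjusted p of 0.1 on the deposited logCPM (limma, Benjamini-Hochberg over all 17440 genes), 1 in each direction, where 0.516% of all genes tested passed, 0.103% higher and 0.413% lower. The first was RPL27 on XI (15703559 to 15706139), at 2125 to 2456 CPM (median 2349) in exposed clutches and 1768 to 2151 CPM (median 1939) in control clutches. Of the 8 exposed clutches, 7 clutches lay above every control clutch. RPL27 rose by 0.25 on the log2 scale (SE 0.05, adjusted p = 0.0654). RPS24 on VI (9862404 to 9866201), the ribosomal protein of the other subunit, had 1895 to 2342 CPM (median 2161) in exposed and 1632 to 1969 CPM (median 1801) in control clutches, with a log2 fold change of 0.24 (SE 0.06) that missed the threshold (adjusted p = 0.106).

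The second was ENSGACG00000020830 on VII (26234573 to 26239198), the last of the 100 by rank. It had 1139 to 1461 CPM (median 1286) in exposed clutches and 1333 to 1641 CPM (median 1539) in control clutches, with 5 of 8 exposed clutches below every control clutch. It fell by 0.25 on the log2 scale (SE 0.06, adjusted p = 0.0974). The study's list does not hold this gene. Its control level placed it among the 100, so its lower level in exposed clutches is not independent of the choice. With members chosen by exposed clutches or by all clutches it was not a member. The 1 member past the threshold was then higher in exposed clutches. Neither call was kept with median-of-ratios scaling, with limma adjusted p-values of 0.159 for RPL27 and 0.312 for ENSGACG00000020830, where 0.0860% of all genes passed. Nor was either kept without the 6 clutches high in short gene models, where 0.00% passed and the limma values were 0.481 for the first and 0.465 for the second. That fit held only 3 exposed and 7 control clutches, and the log2 fold changes in it were 0.22 for RPL27 and -0.29 for ENSGACG00000020830. The direction of both was the same in all 25 alternatives tried, with log2 fold changes between 0.15 and 0.33 for RPL27 and between -0.34 and -0.17 for ENSGACG00000020830. The threshold was missed in 15 of the 25 by RPL27 and in 17 of the 25 by ENSGACG00000020830. The count of members past the threshold rested on single clutches: it was 15 without clutch 3_10, 12 higher and 3 lower, where 7.07% of all genes passed, and 0 without any one of 10 other clutches.

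On FPKM no member passed an adjusted p of 0.05 (limma on log2(FPKM + 1), 21028 gene models), where 0.309% of the models passed, and 13 members had an unadjusted p below 0.05, where 20.8% of the models did. The closest was ENSGACG00000020830, at 605 ± 63.3 FPKM in exposed and 758 ± 49.6 FPKM in control clutches (SD, n = 8 each), with a log2 fold change of -0.33 (adjusted p = 0.0502). Here too its control level on CPM placed it among the members, so this value is not independent of the choice. RPL27 had 5383 ± 431 FPKM in exposed and 4765 ± 428 FPKM in control clutches, a log2 fold change of 0.18 (adjusted p = 0.231).

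The other 3 named members were all higher on average in exposed clutches without passing the limma test. The study's list, which holds all 3, came from other tests (edgeR and Cuffdiff). The study reported hbbe1.1 as significantly upregulated. APO14KDA on XX (759236 to 760746) had 3102 to 5199.9 CPM (median 3946) in exposed and 2665 to 3943.5 CPM (median 3073) in control clutches. All 8 exposed clutches lay above the control median and 4 lay above every control clutch. Its log2 fold change was 0.37 (SE 0.10, adjusted p = 0.12). BHMT on XIII (4563439 to 4568919) had 2027 to 3539 CPM (median 2358) in exposed and 1444 to 2169 CPM (median 1992) in control clutches, and 6 of the 8 exposed clutches lay above every control clutch. Its log2 fold change was 0.35 (SE 0.10, adjusted p = 0.136). For hbbe1.1 (XI, 13646453 to 13647149) the values were 2874 to 4594 CPM (median 4133) in exposed and 1467 to 3641 CPM (median 2724) in control clutches, with a log2 fold change of 0.52 (SE 0.16) and an adjusted p of 0.142. Without the 6 clutches high in short gene models its log2 fold change was 0.31 (adjusted p = 0.758). In that limma fit the log2 fold change was larger than in the main fit for the other 2. It was 0.51 for APO14KDA (adjusted p = 0.404) and 0.52 for BHMT (adjusted p = 0.435). The classes of the 29 markers gave these sums beside them. The 8 of the yolk syncytial layer and liver summed to 3889 to 6263 CPM in exposed and 3133 to 4681 CPM in control clutches, and the 3 of red blood cells to 2937 to 4631 CPM in exposed and 1610 to 3660 CPM in control clutches, but most of both sums is APO14KDA and hbbe1.1 themselves, so they add nothing to these values. None of the markers of the other 4 classes is a member. Muscle markers summed to 116 to 207 CPM in exposed and 95.2 to 130.1 CPM in control clutches, and the neural marker had 73.3 to 103.4 CPM in exposed and 68.2 to 90.1 CPM in control clutches. Epidermis markers summed to 1598 to 2058 CPM in exposed and 1752 to 1963 CPM in control clutches, and lens markers to 502 to 1814 CPM in exposed and 529 to 1152 CPM in control clutches. All 29 markers take their names from the study's list of differentially expressed genes, chosen on these same clutches. Differences in these sums are therefore partly built in and are not an independent measure of cell types. The part of these markers in the result was not tested.

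Among the leading members a pair had fold changes of opposite sign that did not pass the test. ENSGACG00000006034, at rank 4, had 4911 to 8574 CPM (median 6548) in exposed and 4403 to 6421 CPM (median 5001.2) in control clutches, and its log2 fold change was 0.31 (SE 0.10, adjusted p = 0.168). ENSGACG00000013530, at rank 3, had 5049.9 to 6013 CPM (median 5356) in exposed and 5764 to 7207 CPM (median 6041) in control clutches, and 7 of the 8 exposed clutches lay below every control clutch. Its log2 fold change was -0.18 (SE 0.06, adjusted p = 0.159). No member had groups that did not overlap at all, where 0.0229% of all genes were wholly higher and 0.149% wholly lower in exposed clutches.

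The gene with the largest fold change was also the least steady. ENSGACG00000001394 on scaffold_571 had 1936 to 19810.0 CPM (median 9633) in exposed and 2069 to 14405 CPM (median 4054) in control clutches, so the groups overlapped between 2069 and 14405 CPM and 1 exposed clutch lay above every control clutch. Its log2 fold change of 0.66 (SE 0.48) did not pass the test (adjusted p = 0.508). Its 6 highest clutches were the same 6 that lay above the cut in short gene models, at 8880.1 to 19810.0 CPM against 1936 to 6650 CPM in the other 10. Among those other 10 it averaged 2397 CPM in 3 exposed and 3830.1 CPM in 7 control clutches, and the log2 fold change was -0.60 (limma, adjusted p = 0.613). The 6 left out are its highest clutches and 5 of them are exposed, so a lower fold change is partly built in. This fit therefore cannot decide the direction. It was the most abundant nuclear gene of 5 clutches, 4 exposed and 1 control, and stood as low as rank 88 among nuclear genes in another.

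Several short gene models near this gene were also high in those 6 clutches on FPKM, which for models of at most 110 nt is partly built in, since their summed FPKM defined the 6. A model of 154 nt next to it, ENSGACG00000021870, had 12517 to 44563 FPKM in the 6 clutches and 488 to 2088 FPKM in the other 10. On CPM, which counts only reads that fall in 1 gene, it had 0.348 to 15.3 in the 6 and 0.561 to 37.4 in the other 10, so it did not stand apart there. A model of 92 nt farther along, ENSGACG00000022145, had 24665 to 42105 FPKM in the 6 clutches and 4742 to 17022 FPKM in the other 10. ENSGACG00000022840, of 88 nt, overlapped, with 473 to 1215 FPKM in the 6 clutches and 108 to 526 FPKM in the other 10. A longer model there, ENSGACG00000001396 of 1647 nt, had 5670 to 9502 FPKM in the 6 clutches and 1006 to 3507 FPKM in the other 10. Its span, 10534 to 12180, holds that of ENSGACG00000022840. Models of the same length of 154 nt on other scaffolds are named 5_8S_rRNA. The one on scaffold_54 had 11954 to 42422 FPKM in the 6 clutches and 463 to 2058 FPKM in the other 10. It stood apart on CPM too, at 4.80 to 17.7 in the 6 and 0 to 1.57 in the other 10. On CPM the one on scaffold_503 also stood apart (2.01 to 6.94 against 0.159 to 1.72). On FPKM it overlapped (470 to 1766 against 112 to 767). The one on scaffold_835 overlapped on CPM (3.53 to 13.3 against 0.962 to 19.2). On FPKM it stood apart (390 to 1596 against 20.8 to 82.9). Libraries were made from RNA selected with oligo(dT). The part of these models in the level of the scaffold_571 member was not tested.

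**Figure D4:**
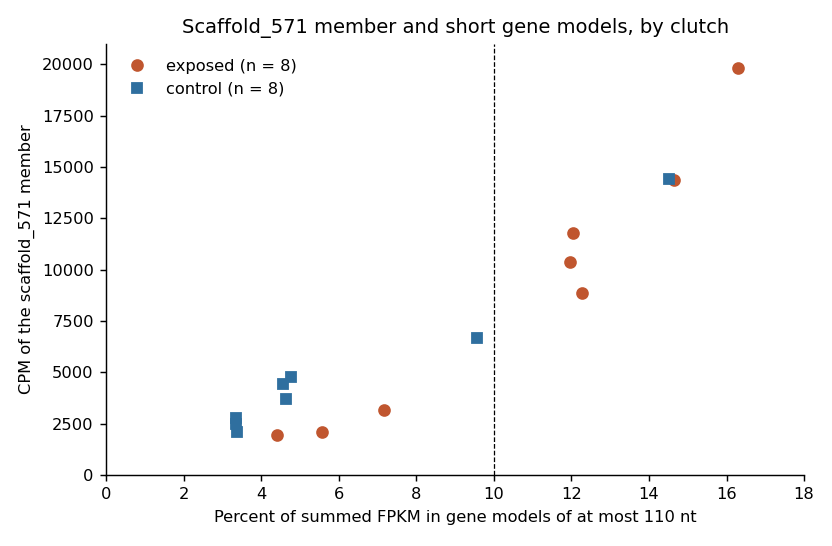
Level of the scaffold_571 member in CPM against the percent of summed FPKM in gene models of at most 110 nt, one point per clutch, circles for exposed and squares for control (n = 8 each), with a dashed line at 10%. The 6 clutches right of the line, 5 exposed and 1 control, lie at 8880.1 to 19810.0 CPM, and the other 10 at 1936 to 6650 CPM.

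Most members differed little between the groups. Of the 100, 90 had a log2 fold change between -0.25 and 0.25, 9 were above and 1 below. There were 69 members with a mean log2 fold change above 0 and 31 below, where 34.2% of all genes were above 0, and the median was 0.05 over the members and -0.05 over all genes. An unadjusted p below 0.05 was found for 25 members, 18 higher and 7 lower, where 16.3% of all genes reached it, 3.28% higher and 13.0% lower. The direction depended on the scaling. With median-of-ratios scaling 90 members were higher, where 51.3% of all genes were, and the medians were 0.13 over the members and 0.00 over all genes. With quantile normalization 36 members were higher, where 48.3% of all genes were, and the medians were -0.05 over the members and 0.00 over all genes. On FPKM 45 were higher and 55 lower, where 27.9% of all models were higher. The members' median on FPKM was -0.02, against -0.08 over all models.

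The direction went with the apparent length and with the span of the locus. Apparent length is not a measured transcript length, because the assignment of ambiguous reads also enters it. Of 48 members with an apparent length under 800 nt, 38 were higher in exposed clutches, of 24 between 800 and 1500 nt 19 were higher, and of 28 from 1500 nt upwards 12 were higher and 16 lower. The median log2 fold changes were 0.07, 0.05 and -0.01 in that order. Spearman's rho between log2 fold change and apparent length was -0.37 across the 100 members and -0.44 across the 1555 other nuclear genes of at least 100 CPM, so the order was not particular to the members. Genes are not independent replicates, all values come from the same 16 libraries, and the apparent length shares the control CPM with the fold change, so these are descriptions. With the span of the locus in place of the apparent length, which shares no reads with the fold change, rho was -0.39 in both sets. The counts moved with the scaling, which shifts all genes together: with median-of-ratios scaling 48 of 48, 22 of 24 and 20 of 28 members were higher, the longest included. Without the 6 clutches high in short gene models, 29 of 48, 15 of 24 and 10 of 28 members were higher, and rho with apparent length was -0.27 in the members and -0.40 in the other genes.

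**Figure D5:**
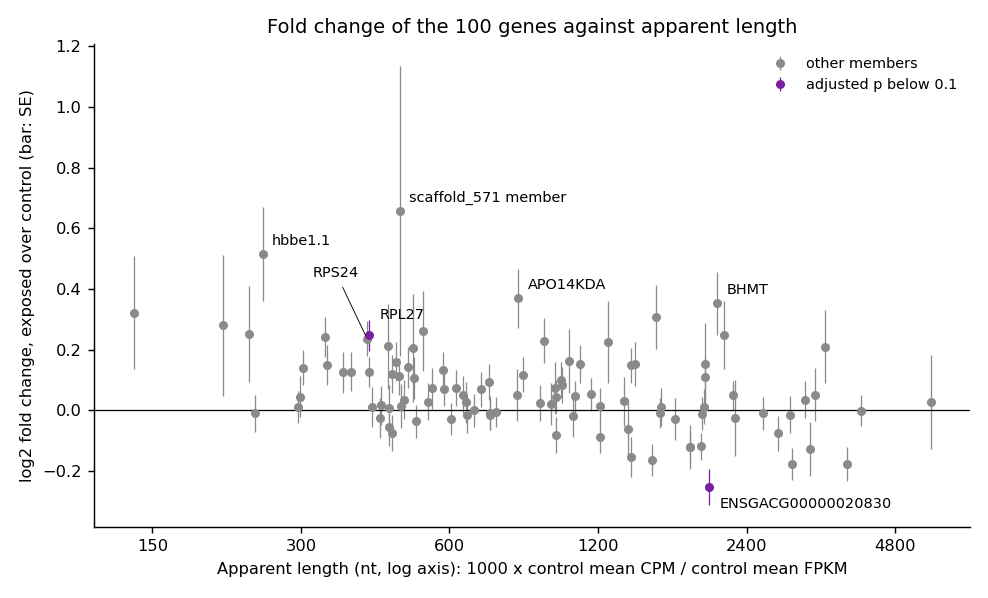
log2 fold change, exposed over control, with its SE, of each of the 100 genes against apparent length in nt (log axis), with the 2 genes past an adjusted p of 0.1 in purple and the named genes labelled. Members under 800 nt lie mostly above 0 (38 of 48) and those from 1500 nt upwards mostly below (16 of 28), although 20 of those 28 are above 0 with median-of-ratios scaling.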

How the data were processed

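RNA of 10 pooled whole embryos per clutch was sequenced for 8 exposed (maternally-stressed) and 8 control clutches, grouped by the label of maternal treatment. The authors selected mRNA with oligo(dT) in a stranded kit, trimmed the reads, aligned them to BROADS1 (Ensembl) with TopHat2 2.0.8 and counted those falling uniquely within genes. Whether the counting used strand is not given in the sources used here. The deposited logCPM values are log2 values made by the authors with edgeR, per library total and with a moderating prior, for 17440 genes. FPKM values, deposited for 22456 gene models, come from Cufflinks 2.1.1 as run by the authors. The columns of FPKM bounds were not used.

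CPM was taken as 2 to the power of logCPM minus the smallest such value (2.77 CPM). Whole reads were recovered in this way, to within 3.8e-09 of a read, and 3 reads, the limit that a count of 0 allows, came to 0.235 to 0.335 CPM. The members and gene lists were chosen with earlier results of these data known. Groups were compared with limma 3.58.1 in R 4.3.3 (lmFit, eBayes with trend, two-sided, Benjamini-Hochberg), on logCPM of all genes at 0.1 and on log2(FPKM + 1) of the 21028 models above 0 in at least 2 clutches at 0.05. The fit on logCPM was first tried on simulated counts. The changes simulated there were larger than those of the members called, so that trial does not bear on changes of their size. Fold changes on the second scale include the pseudocount of 1. Shares of reads were compared by exact permutation, where the smallest possible p is 1.6e-04. Figures were drawn with matplotlib in Python.

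Named in the text by rule were the 20 members with the largest control mean, the 5 with the largest and smallest CV in control clutches, those past a threshold, the 5 with the largest fold change in each direction, those with a symbol in the fixed lists, and the 3 on either side of the rank limit. Of these, several are given by counts only. ENSGACG00000009649, ENSGACG00000013891 and the neighbours on scaffold_571 and XI were chosen after their values were seen. Alternatives were other scalings, filters, prior variance, clutch weights, pseudocounts, member choices, a replicate block on the second number of the clutch names and each clutch left out in turn. Chosen after seeing the data were a test of the recovered reads with voom, leaving out the 6 clutches high in short gene models, and leaving out the scaffold_571 member.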

Additional observations from a re-analysis of the deposited data

Results flagged for a closer look

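Among the 76 groups of 8 clutches checked (2 groups for each named gene and share), 9 had 1 clutch far from the other 7, by a gap, over the group's range, above Dixon's 95% critical value. Chance alone flags about 1 in 20 groups, and the groups share clutches. In exposed clutches, clutch 14_28 was high for ENSGACG00000013533 (5923 CPM, next 4644) and for BHMT (3539 CPM, next 2663), clutch 26_28 for ENSGACG00000012793 (5378 CPM, next 4974), and clutch 6_21 for ENSGACG00000000061 (1966 CPM, next 1649.9). In control clutches, clutch 15_2 was high for the scaffold_571 member ENSGACG00000001394 (14405 CPM, next 6650) and for ENSGACG00000013882 of the stretch on XI (3087 CPM, next 1932), clutch 5_14 for ENSGACG00000013530 (7207 CPM, next 6447) and for ENSGACG00000006447 (1722 CPM, next 1598), and clutch 15_5 was low for ENSGACG00000013869, also of that stretch (810.1 CPM, next 1931). No cause was tested.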

How the results depend on the processing

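The count of members past an adjusted p of 0.1 on logCPM, 2 in limma, was 26 with clutch weights (2491 of all genes), 4 among 200 members, 1 with members chosen by exposed clutches or by all clutches, 1 with the replicate block on the second number of the clutch names (47 genes, against 90 without it; the call lost was that of ENSGACG00000020830, limma adjusted p = 0.113, and RPL27 had 0.095), and 0 with median-of-ratios scaling, without an intensity trend, among 50 members, and without the 6 clutches high in short gene models, with or without median-of-ratios scaling. The second number is shared by both groups in 3 cases only, is not explained, and the consensus correlation of clutches that share it was 0.0866. With quantile normalization the count was 2, both lower (96 of all genes), and RPL27 missed the threshold (limma adjusted p = 0.133). Leaving out single clutches gave 0 to 15, with 15 without 3_10, 11 without 8_10 and 10 without 15_14, where 1233, 1087 and 746 of all genes passed. On FPKM the count of 0 (65 of all models) became 1 with a pseudocount of 0.1 (241 models) or a mean FPKM of at least 1 (207), and 0 to 4 without single clutches: 4 without 15_2 (613), 3 without 3_10 (1550) and 3 without 6_21 (675). Members with a log2 fold change above 0 numbered 36 with quantile normalization, and 62 to 78 without single clutches.

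The summed share differed by 1.74 points with reads in nuclear genes as denominator (p = 0.0429), 1.79 with members by exposed clutches, 1.72 with members by all clutches, -4.42 on summed FPKM, and 1.36 to 2.00 without single clutches (exact permutation p below 0.05 without 3_10, 8_10, 15_14 or 5_21). That of the 10 leading members was -0.208 on summed FPKM (p = 0.168), -0.201 without the 6 clutches, and 0.295 to 0.600 without single clutches, with p = 0.0287 by the exact test without 3_10. Within the 3 shared second numbers the mean differences were 2.24 and 0.649 points in this order, with no test. The median CV in control clutches was 12.6% with median-of-ratios scaling, 9.64% on FPKM, and 7.29 to 8.22% without single clutches. The log2 fold change of the scaffold_571 member was -0.60 without the 6 clutches and -0.57 with median-of-ratios scaling added. The causes of these changes were not tested. Fewer samples enter each fit without clutches.

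Clutches with second number 14 were all control and those with 10 all exposed, so if it marks a batch, that and exposure cannot be told apart for them. The first number, shared only among control clutches, was not used as a block. Counting error gave a CV of at most 1.08% for any member.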
